A study of Mus musculus with 12 samples.

Results

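The genes described here are 137 of 32182 genes, selected for a level that was far higher in adipocytes than in stromal vascular cells of both fat depots and moderately lower in epididymal than in inguinal adipocytes. They were selected by TPM (the unit of transcript level that the authors deposited, a level per length scaled to the same total in every library), using the mean of each group with 0.1 TPM added. A member had an adipocyte to stromal ratio of at least 4 in epididymal adipose tissue (EAT) and of at least 8 in inguinal adipose tissue (IAT). Its EAT to IAT ratio lay from 0.34 to 0.6 in adipocytes and between 0.4 and 1.6 in stromal vascular cells, and its mean was at least 5 TPM in IAT adipocytes. Every IAT adipocyte library also had to lie above every EAT adipocyte library. All of these ratios were therefore fixed by the selection, and the levels and differences below are a description of the selected genes, given without p-values.

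The 12 libraries came from male C57BL/6J mice that were 8 weeks old when a high-fat diet began and that ate it for 10 weeks. The 4 groups were EAT adipocytes, IAT adipocytes, EAT stromal vascular cells (SVCs) and IAT SVCs, each with 3 libraries, and both fractions were released from the tissue with collagenase I. Mice on another diet were not among the samples, so every group shares the high-fat diet. The labels do not say whether a library came from 1 animal or from pooled animals, nor whether libraries of a group came from separate animals, so the spread between them may be technical. Each library held from 20707325 to 26349357 expected counts.

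White adipocytes store triglyceride in a single large droplet, release fatty acids between meals and secrete hormones such as leptin and adiponectin. EAT is a visceral depot of male rodents, and IAT is a subcutaneous depot that can acquire thermogenic adipocytes in the cold. The stromal vascular fraction is what remains when the floating adipocytes are removed, and it holds fibroblast-like progenitors, endothelial cells and immune cells, among them the macrophages that gather in visceral fat on a fatty diet. The gene tables name genes by UCSC transcript identifiers, and no table used here pairs those with symbols. The functions of the members, their pathways, their sequences and the cell type markers of each fraction are therefore not given, and the fraction labels were not checked against markers. Only 4 members are named, by identifier, and the others are described by counts and ranges.

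In EAT adipocytes, replicate 2 differed from the other libraries in a way that followed gene length. Among genes with a mean of at least 1 TPM and a length within the range of the members, the median log2 difference between replicate 2 and the mean of the other 2 libraries was 0.20 in 3707 genes of 465 to 1752 bases, -0.37 in 4174 genes of up to 2952 bases and -0.95 in 5769 longer genes of up to 10494 bases. The results that rest on this library are given with and without it below.

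The members were the middle of the depot distribution of adipocyte-enriched genes. Of 9911 genes at 5 TPM or more in IAT adipocytes, 376 reached the adipocyte to SVC ratio in IAT, 314 of those reached it in EAT as well, and 258 of those lay within the bounds on the SVC ratio of the depots. Among these 258 adipocyte-enriched genes the EAT to IAT ratio in adipocytes ran from 0.0320 to 3.88 with a median of 0.496 and quartiles of 0.398 and 0.655. In comparison, the median over the 13970 genes with a mean of at least 1 TPM was 0.982 in adipocytes and 1.006 in SVCs. A ratio from 0.34 to 0.6 was found in 138 of the 258 genes (53.5%). A lower ratio was found in 42 genes (16.3%), and 49 genes (19.0%) lay from 0.6 to 0.8. Only 18 genes (6.98%) were between 0.8 and its inverse, and 11 genes (4.26%) were above that. The adipocyte-enriched genes chosen in this way thus lay mostly on the lower side of the depots' parity, and the bounds enclosed the peak of their distribution. The minimum for the adipocyte to SVC ratio was higher in IAT than in EAT, and the floor on level was set in IAT adipocytes alone. Both conditions favour a ratio below parity, so nothing is read from the distance between their median and that of all genes.

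**Figure D1:**
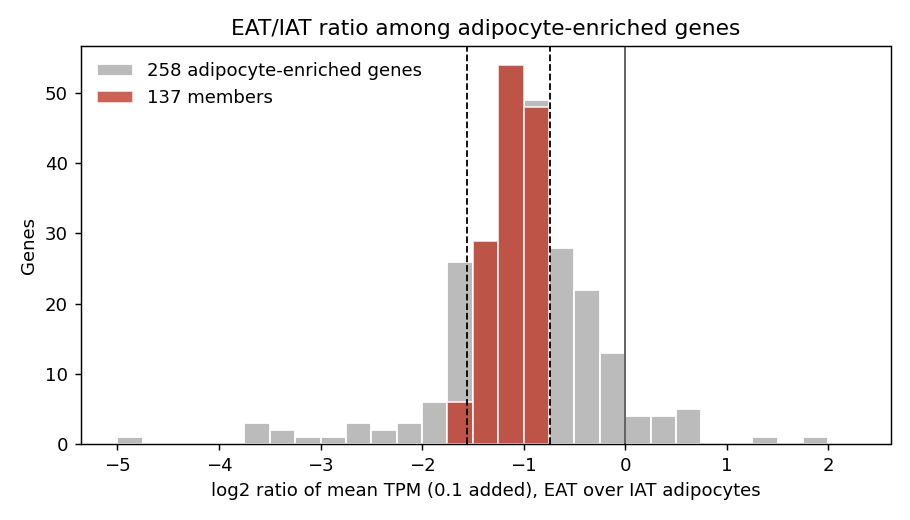
Histogram of the log2 ratio of mean TPM (0.1 added) in EAT over IAT adipocytes for the 258 adipocyte-enriched genes (grey) and the 137 members (red), with dashed lines at the bounds of 0.34 and 0.6 and a solid line at equal levels. The members fill the tallest bars, and 29 of the 258 genes lie at or above a ratio of 0.8.

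The condition on separate libraries removed 1 of the 138 genes. That gene had 53.5, 31.5 and 74.3 TPM in EAT adipocyte replicates 1 to 3 and 93.9, 67.2 and 108 TPM in IAT adipocytes, a ratio of 0.592. The bounds themselves fell in a continuum. Just inside the lower bound were genes at ratios of 0.342 and 0.343, and just outside it were genes at 0.3394 (4.72 ± 1.26 against 14.1 ± 1.93 TPM, SD, n = 3) and 0.3398 (9.31 ± 3.10 against 27.6 ± 1.82 TPM). Just inside the upper bound were genes at 0.588 (5.55 ± 1.22 against 9.51 ± 1.64 TPM) and 0.591 (4.08 ± 1.03 against 6.97 ± 1.27 TPM). Just outside it were genes at 0.6004 (528 ± 76.3 against 879 ± 67.4 TPM) and 0.6005 (361 ± 147 against 602 ± 73.9 TPM). Genes on either side of a bound differed in their ratio by less than their replicates did.

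The members together held several percent of all adipocyte transcripts by TPM. Their summed level was 61001, 65655 and 60879 TPM in IAT adipocyte replicates 1 to 3, and 24674, 30550 and 32235 TPM in EAT adipocytes. All 3 EAT sums lay below all 3 IAT sums. The means were 62511 ± 2723 and 29153 ± 3970 TPM (SD, n = 3), or 6.25% ± 0.272 and 2.92% ± 0.397 of all TPM, a ratio of 0.466. In SVCs the sums were 1535, 1592 and 1525 TPM in EAT (1551 ± 36.4) and 1840, 1821 and 1805 TPM in IAT (1822 ± 17.3), a ratio of 0.851. The summed level in SVCs was 18.8 times below that in adipocytes of EAT and 34.3 times below that in adipocytes of IAT. In bulk libraries such as these, fewer adipocytes in a fraction and less of a transcript per adipocyte cannot be told apart.

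**Figure D2:**
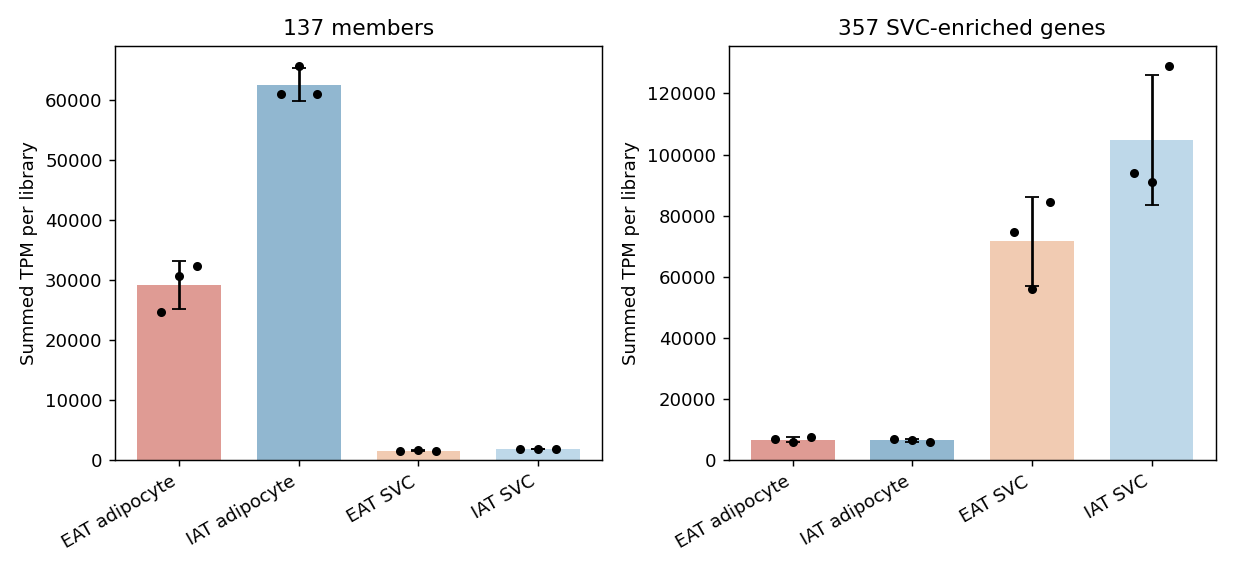
Summed TPM per library of the 137 members (left) and of 357 SVC-enriched genes (right) in the 4 groups; points are libraries, bars are means and error bars are SDs of 3 libraries. The members' sums in EAT adipocytes lie below those in IAT adipocytes without overlap, which the selection required. The sums of the SVC-enriched genes overlap between the 2 adipocyte groups. Both sets were selected on these levels, so their depot ratios are not compared.

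A few members carried much of the sum. In IAT adipocytes the member with the highest level held 13.1% of the members' TPM, the top 2 held 23.3%, the top 6 held 48.7% and the top 10 held 58.7%. Without the top 10, the sums were 12392 TPM in EAT and 25819 TPM in IAT adipocytes, and their ratio was 0.480, against 0.466 with them. Both ratios had to lie within the bounds of the selection. Single members ran from 5.39 to 8199 TPM in IAT adipocytes, with a median of 109 and quartiles of 33.4 and 380. In EAT adipocytes they ran from 2.76 to 3089 TPM, with a median of 50.5. In IAT adipocytes 75 members were at 100 TPM or more and 12 at 1000 TPM or more.

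**Figure D3:**
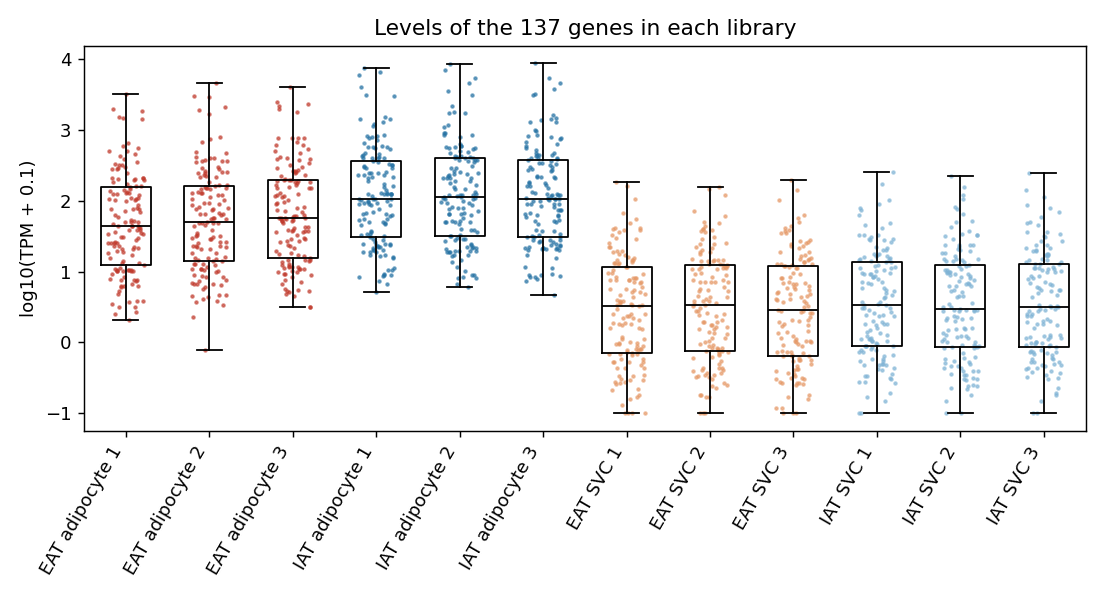
Levels of the 137 members in each of the 12 libraries as log10(TPM + 0.1); points are genes, boxes span the quartiles with the median as a line, and whiskers reach the lowest and highest member. The medians lie between 43.8 and 57.1 TPM in EAT adipocytes, between 106 and 113 TPM in IAT adipocytes, and between 2.76 and 3.27 TPM in all SVC libraries.

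Over the members the EAT to IAT ratio ran from 0.342 to 0.591, with a median of 0.476 and quartiles of 0.419 and 0.533. Expressed the other way, IAT adipocytes were 1.69 to 2.92 times higher, with a median of 2.10. Between 0.34 and 0.4 there were 24 members, between 0.4 and 0.45 there were 28, between 0.45 and 0.5 there were 37, between 0.5 and 0.55 there were 24, and above 0.55 there were 24. The median ratio was 0.445 in the 19 members at 5 to 20 TPM in IAT adipocytes, 0.460 in the 43 at 20 to 100 TPM, 0.488 in the 63 at 100 to 1000 TPM and 0.458 in the 12 above. By enrichment, it was 0.496 in the 34 members with an IAT adipocyte to SVC ratio of 8 to 16, 0.464 in the 68 at 16 to 64 and 0.463 in the 35 above 64. The selection held every ratio between 0.34 and 0.6, so these medians describe where members lay within the bounds and are no comparison of levels.

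The distance between the depots also differed from member to member. The lowest IAT adipocyte library was 1.06 to 2.29 times the highest EAT adipocyte library, with a median of 1.57. That no member overlapped follows from the selection, and 24.6% of the 13970 genes had every EAT adipocyte library below every IAT adipocyte library. In the fit of expected counts with edgeR's quasi-likelihood test (Benjamini-Hochberg adjusted p of at most 0.05 over all 15813 genes tested), 126 of the 137 members were lower in EAT adipocytes, none was higher and 11 did not pass. Of all genes tested, 18.1% were lower at that threshold, and since the selection used this contrast nothing is read from the members' count. The members' log2 differences (EAT minus IAT adipocytes) ran from -1.50 to -0.64 with a median of -0.996 and quartiles of -1.15 and -0.82, against a median of 0.02 over all genes tested. With other scalings the median over all genes was -0.11 (DESeq2 size factors) or 0.06 (library size alone), and the members' median was -1.11 or -0.96.

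The 2 members with the highest level in IAT adipocytes, both higher in adipocytes than in SVCs, were uc008hpr.2 and uc007ovn.3. The first, a gene with 1 transcript in the annotation, had 3191, 2081 and 3994 TPM in EAT adipocytes and 7460, 8435 and 8703 TPM in IAT adipocytes. In SVCs it had 49.0, 39.7 and 39.0 TPM in EAT and 63.1, 49.7 and 48.2 TPM in IAT. Its highest EAT adipocyte library was thus well below its lowest IAT adipocyte library, while its SVC libraries overlapped between depots. The depot difference of uc008hpr.2 was -1.37 (log2, SE 0.17) in adipocytes and -0.35 (SE 0.17) in SVCs.

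The shortest member, uc007ovn.3 (465 bases, 2 transcripts), had 1870, 4541 and 2507 TPM in EAT adipocytes and 6592, 7053 and 5503 TPM in IAT adipocytes. In SVCs it had 182, 158 and 198 TPM in EAT and 256, 222 and 250 TPM in IAT. The groups did not overlap in either fraction, but EAT adipocyte replicate 2 was far above the other 2 EAT libraries. Its depot difference in adipocytes was -0.91 (log2, SE 0.35), and uc007ovn.3 was among the 11 members that did not pass the threshold.

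The 2 members with the lowest EAT to IAT ratio in adipocytes were uc007vex.1 (4 transcripts, 4172 bases) and uc009hyu.2 (5 transcripts, 1853 bases). The values of uc007vex.1 were 18.2, 14.3 and 18.1 TPM in EAT adipocytes and 45.4, 70.7 and 32.5 TPM in IAT adipocytes, where replicate 2 was the highest and replicate 3 the closest to EAT. Its SVC values were 1.78, 1.98 and 1.92 TPM in EAT and 3.60, 2.79 and 2.38 TPM in IAT, again without overlap. The log2 depot difference of uc007vex.1 was -1.47 (SE 0.22) in adipocytes and -0.65 (SE 0.24) in SVCs.

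For uc009hyu.2 the EAT adipocyte libraries held 563, 495 and 770 TPM and the IAT adipocyte libraries 1533, 2180 and 1613 TPM. In SVCs it held 9.32, 10.7 and 6.77 TPM in EAT and 12.4, 9.69 and 10.4 TPM in IAT, and there the depots overlapped. The log2 depot difference of uc009hyu.2 was -1.47 (SE 0.18) in adipocytes and -0.30 (SE 0.19) in SVCs. In both depots its adipocyte level was far above its SVC level.

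**Figure D4:**
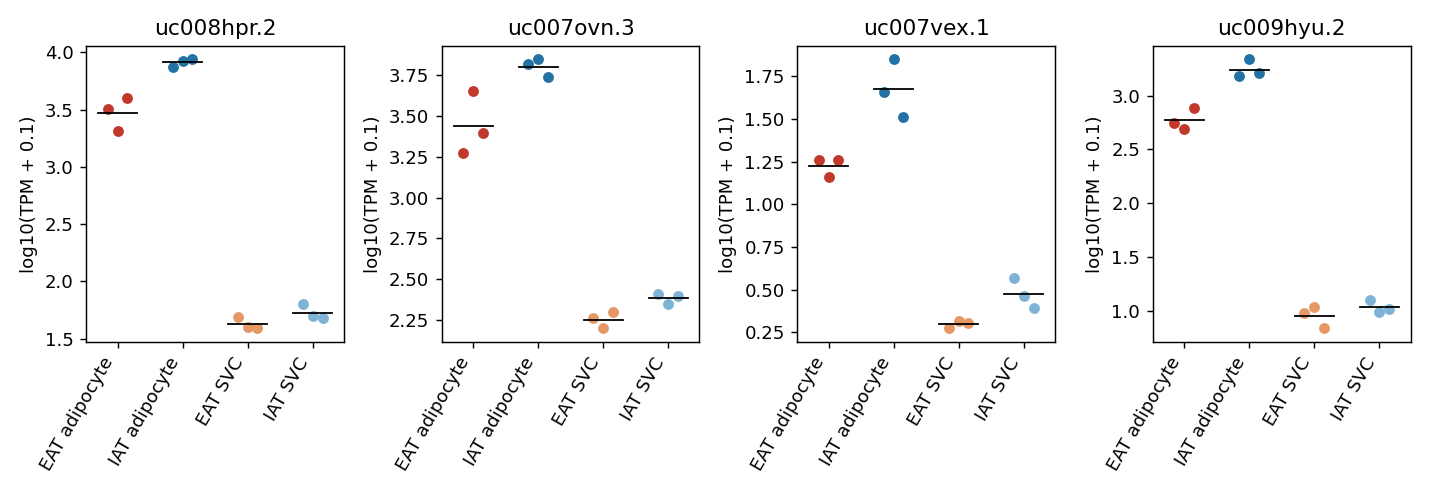
Level of the 4 named genes in each library as log10(TPM + 0.1), on a separate axis for each gene that does not start at 0; points are libraries and lines are means of the plotted values over 3 libraries. In each gene the 3 IAT adipocyte libraries lie above the 3 EAT adipocyte libraries, and the SVC libraries of the depots overlap for uc008hpr.2 and uc009hyu.2.

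Within SVCs the depot ratio of the members was centred nearer to parity and spread over most of the range the selection allowed. It ran from 0.401 to 1.55, with a median of 0.836 and quartiles of 0.715 and 1.10. It was below 1 in 94 members and at or above 1 in 43. A mean of 1 TPM in SVCs was reached by 91 members in EAT and by 94 in IAT. At lower levels the added 0.1 TPM draws the ratio towards 1. In the edgeR fit of counts, the members' log2 depot difference in SVCs ran from -2.60 to 0.65. In 133 members the adipocyte ratio was below the SVC ratio, and in 4 it was not. All EAT SVC libraries lay below all IAT SVC libraries in 41 members, against 21.1% of the 13970 genes, and above them in 18 members, against 23.5%; the SVC ratio was itself bounded by the selection. In the edgeR quasi-likelihood fit 2 members were higher and 11 were lower in EAT SVCs, 13 of 137 in all, and 14.6% of all genes tested differed in either direction. This count of 13 was 32 when only the SVC libraries were fitted, 21 with DESeq2 and 33 without EAT adipocyte replicate 2. It was 4 without EAT SVC replicate 3, 6 without EAT SVC replicate 1, and 7, 8 and 7 without IAT SVC replicates 1, 2 and 3. The share of all genes was not computed for these other fits, so the shifts are not read as changes particular to the members.

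The depot difference of most members was more negative in adipocytes than in SVCs. The interaction (the log2 depot difference in adipocytes less that in SVCs) had a median of -0.79 over the members, against 0.07 over all genes tested. Over the members it ran from -1.99 to 1.78. It passed the edgeR threshold in 44 members, all with a negative value, and 93 did not pass. Of all genes tested, 7.76% passed with a negative value. The selection used both contrasts, so the count is a description. Leaving out EAT adipocyte replicate 2 raised it to 79, and leaving out IAT SVC replicate 3 lowered it to 29. For those 2 fits the share of all genes was not computed, so the shifts are not read as particular to the members. The interaction was -1.03 (SE 0.24) in uc008hpr.2, -1.18 (SE 0.26) in uc009hyu.2, -0.83 (SE 0.32) in uc007vex.1 and -0.49 in uc007ovn.3, and of these 4 genes only the first 2 passed.

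Every member was far higher in adipocytes than in SVCs, and SVC levels were mostly low. The adipocyte to SVC ratio ran from 4.08 to 415 in EAT, with a median of 15.8, and from 8.02 to 388 in IAT, with a median of 26.99. The SVC level was a median of 6.29% of the adipocyte level in EAT and 3.36% in IAT, and at most 24.4% and 12.1%. The lowest adipocyte library exceeded the highest SVC library in all 137 members in both depots, by at least 1.16 times in EAT and at least 5.54 times in IAT. The ratios of the selection favoured this, and the share over all genes was not computed, so nothing is read from that count. In SVCs 91 members in EAT and 94 in IAT reached a mean of 1 TPM. In EAT SVCs 6 members were listed at 0 in some library, 2 of them in every library, and in IAT SVCs 4 were listed at 0 in some library. All 137 members were higher in adipocytes of EAT and of IAT in the edgeR fit, where 30.4% and 29.5% of all genes tested were higher. Their median log2 difference was 4.48 in EAT and 5.19 in IAT.

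Genes of the stromal fraction were also present in the adipocyte libraries. A set of 357 SVC-enriched genes (at least 5 TPM in IAT SVCs, an adipocyte to SVC ratio in IAT of at most the inverse of 8, and within the same SVC bounds) summed to 6720, 5917 and 7370 TPM in EAT adipocytes and to 6898, 6382 and 6019 TPM in IAT adipocytes. These sums overlapped, with means of 6669 ± 728 and 6433 ± 442 TPM (SD, n = 3) and a ratio of 1.04. In SVCs the set summed to 71635 ± 14519 TPM in EAT and 104719 ± 21179 TPM in IAT, so that its adipocyte level was 0.0931 of its SVC level in EAT and 0.0614 in IAT. In the edgeR fit 96 of the 354 tested genes of the set were higher in EAT adipocytes and 26 were lower, with a median log2 difference of 0.26. Of all 15813 genes tested, 3414 were higher and 2869 were lower. The set was selected for low levels in IAT adipocytes relative to IAT SVCs, and no such condition was set in EAT. That favours higher values in EAT adipocytes, so nothing is read from these counts, from the ratio of 1.04 or from the 2 ratios to SVCs. The members were selected on their depot ratio, so the depot ratios of the 2 sets are not compared. The part of stromal RNA in the members' depot difference was not tested.

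Replicates of EAT adipocytes differed more than those of the other groups. The median coefficient of variation over members was 22.3% in EAT adipocytes, 9.63% in IAT adipocytes, 14.6% in EAT SVCs and 13.3% in IAT SVCs. Over all genes it was 27.6%, 11.3%, 9.38% and 8.81%, respectively. In EAT adipocytes replicate 1 was the lowest in 79 members and replicate 2 in 58, while replicate 3 was the highest in 90 and the lowest in none. The median ratio of a single EAT library to the IAT adipocyte mean was 0.410 for replicate 1, 0.458 for replicate 2 and 0.541 for replicate 3. The number of members within 0.34 to 0.6 was then 114, 83 and 94. With replicates 1 and 3 alone the median ratio was 0.475, and 119 members stayed within the bounds, 8 were below and 10 above.

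The members followed the length pattern of EAT adipocyte replicate 2. Its median log2 difference from the other 2 libraries was 0.31 in the 46 members of up to 1752 bases, -0.003 in the 45 of up to 2952 bases and -0.51 in the 46 longer ones, and it was the higher library in 40, 22 and 4 of them. Relative to the IAT mean, replicate 2 gave a median ratio of 0.566, 0.456 and 0.352 in the same groups of members, while replicates 1 and 3 gave 0.449, 0.475 and 0.508. In all genes of these lengths the corresponding ratios were 1.16, 0.828 and 0.580 in replicate 2 and 0.999, 1.06 and 1.10 in replicates 1 and 3. The short members were thus further below IAT in replicates 1 and 3, and the long members in replicate 2. In replicate 2 the lowest member stood at 0.0655 of its IAT mean and the highest at 0.791. The part of this library's length pattern in the depot difference was not tested. The members' median ratio was 0.476 with it and 0.475 without it, but the members were selected on means that included it. In the edgeR fit their median log2 depot difference in adipocytes was -0.996 with this library and -1.19 without it. The members that passed as lower were 126 and 137, and the share of all genes was not computed for the second fit. With all libraries kept and a length trend removed from each, the median was -1.07 and 134 members passed as lower. The share of all genes was not computed for that fit either.

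**Figure D5:**
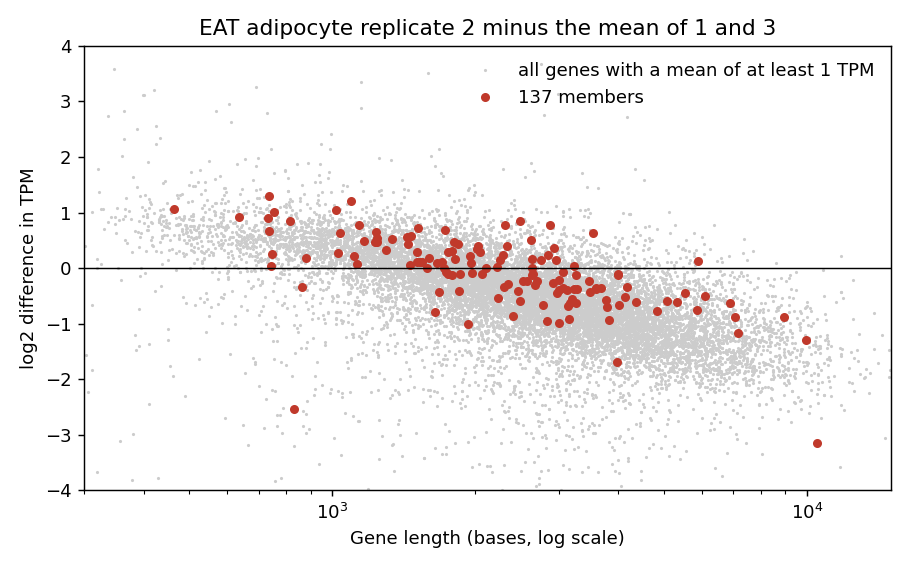
Log2 difference in TPM between EAT adipocyte replicate 2 and the mean of replicates 1 and 3 against gene length in bases (log axis), for genes with a mean of at least 1 TPM (grey, within the axes shown) and the 137 members (red). Short members lie mostly above the line at 0 and long members below it, with medians of 0.31 and -0.51 in the shortest and longest of 3 length groups.

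Gene length and the number of annotated transcripts were no condition of the selection, but TPM divides by length, and EAT adipocyte replicate 2, whose values moved with length, entered the group means. The members' median length was 2309 bases (quartiles 1540 and 3193, range 465 to 10494). The median was 1728 bases in the 18 adipocyte-enriched genes with a ratio between 0.8 and its inverse and 2164 bases in the 42 genes with a lower ratio, and it was 2598 over the 13970 genes. A single transcript was annotated for 54 members (39.4%), for 55.6% of the 18 genes, for 57.1% of the 42 genes and for 32.7% of the 13970 genes. The median level in IAT adipocytes was 109 TPM for the members, 20.5 TPM for the 18 genes and 23.5 TPM for the 42 genes. The summed levels of the 18 genes were 2505 ± 634 TPM in EAT adipocytes and 2542 ± 122 TPM in IAT adipocytes (SD, n = 3), and those of the 42 genes were 475 ± 95.4 and 1714 ± 80.2 TPM. The members' median depot ratio was 0.478 with 1 transcript (54 members), 0.475 with 2 (45), 0.473 with 3 (16) and 0.446 with 4 or more (22).

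Which transcripts of a gene were used was no condition of the selection. It was followed through the length that the authors' quantification gives for each gene, an average over its transcripts weighted by their abundance. TPM divides by a length of this kind, so this readout is not independent of the selection. A switch between transcripts of similar length would barely change it. With limma on log2 length (Benjamini-Hochberg adjusted p of at most 0.05), none of the 82 members with several transcripts and a varying length differed between EAT and IAT adipocytes, and 9 of 9248 genes did (0.0973%). With so few genes passing, nothing is read from the members' count. At an unadjusted p under 0.05 by the same limma test it was 1 of the 82 members, and the share of all genes there was not computed. Without EAT adipocyte replicate 2 it was again 0 of 82 members at the adjusted threshold, with 52 of 9219 genes passing. The largest absolute difference of a member was 0.18 on the log2 scale, with an SE of 0.27, and 54 members were within 1% of equal length. The median absolute log2 difference was 0.00485 in the members and 0.0119 in all genes. Between adipocytes and SVCs of IAT it was 0.0147 in the members and 0.0127 in all genes. The members' median level in IAT adipocytes was 109 TPM, against 13.2 TPM over genes with a mean of at least 1 TPM. The part of level in these values was not tested, so nothing is read from them.

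Between adipocytes and SVCs of IAT, the weighted length differed in 8 of the 82 members (9.76%) by the same limma test, with 5.94% of the 9248 genes passing. It was longer in adipocytes in 3 and shorter in 5, with log2 differences (adipocytes minus SVCs) from -0.60 (SE 0.14) to 0.29 (SE 0.05). The largest change was from 2948 ± 144 bases in SVCs to 1942 ± 41.5 bases in adipocytes (SD, n = 3), with 3094, 2807 and 2942 bases in the SVC libraries and 1903, 1937 and 1986 bases in the adipocyte libraries, which did not overlap. The opposite change was from 2660 ± 109 bases in SVCs to 3244 ± 8.15 bases in adipocytes. The smallest was in uc007ovn.3, whose weighted length was 464 bases in adipocytes and 466 bases in SVCs. The counts behind the IAT SVC lengths of the 8 genes, summed over the 3 libraries, ranged from 11 to 4397. The number of members that passed was 5 with a replicate block, and 4, 4 and 3 without IAT adipocyte replicates 1, 2 and 3. Without EAT adipocyte replicate 2 it was 11 of 82, while 962 of 9219 genes (10.4%) passed in the same fit.

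Membership itself moved with the scale of the values. The same rule applied to CPM (reads scaled to the library total, with TMM factors) gave 157 genes, of which 108 were members (68.8% of those genes and 78.8% of the members). On that scale, which does not divide by length, the members' ratio had a median of 0.502 and ran from 0.352 to 0.642, with 114 within the bounds and 23 above, and 124 had separate libraries. Applied to the deposited FPKM, the rule gave 128 genes, of which 99 were members (77.3% of those genes and 72.3% of the members). Without EAT adipocyte replicate 2 it gave 151 genes, 118 of them members.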

How the data were processed

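The authors deposited 1 gene table per library with expected counts, TPM, FPKM and an abundance-weighted length for each of 32182 genes, in the columns of an RSEM gene table, per the file headers. RSEM 1.2.25, Bowtie2 2.2.6 and limma, with the builds GRCm38 and mm10, are listed by the submitters' processing notes. Strand use and filters were not stated there, and genes that overlap or resemble each other closely may share reads. Groups were taken from the labels. The members and the comparison sets were chosen with earlier results of these data known.

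The members were selected on the deposited TPM, and the same rule was applied to the FPKM values. The 4 groups of 3 libraries were fitted together with edgeR 4.0.16 in R 4.3.3. Expected counts were rounded, filterByExpr left 15813 genes, including all 137 members, TMM scaled the libraries, and the quasi-likelihood test had 8 residual degrees of freedom. P-values were Benjamini-Hochberg adjusted over all genes tested, at a threshold of 0.05. SEs of edgeR log2 differences were derived from the test. They are the absolute log2 difference divided by the square root of the quasi-likelihood F statistic. Log2 lengths were tested with limma 3.58.1 over 9248 genes with several transcripts, a mean of at least 1 TPM and a length that varied. The scripts were tested on simulated data. The alternatives were other scalings, filters, added amounts and FPKM, DESeq2 1.42.0, a fit of the compared groups alone, a replicate block, removal of a length trend and leaving out each library.

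Named genes were, by identifier, the 2 members with the highest mean TPM in IAT adipocytes and the 2 with the lowest depot ratio. Lists of pathway and cell type genes were not used, since they are given by symbol. Replicate numbers were carried by the libraries' titles. Deviations of same-numbered libraries from their group means correlated above 0.1 in all 3 numbers for IAT adipocytes with IAT SVCs (0.225, 0.148 and 0.226) and for EAT SVCs with IAT SVCs (0.187, 0.153 and 0.149), and in fewer numbers for the other pairs of groups. The lowest count of a member, in genes chosen to be low in SVCs, was 0 in SVC libraries, 7 in EAT adipocytes and 63 in IAT adipocytes.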

Additional observations from a re-analysis of the deposited data

Results flagged for a closer look

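The depot difference differed between the fractions in 44 of the 137 members by the interaction of depot and fraction in edgeR's quasi-likelihood fit, with a more negative difference in adipocytes in each of them. Of all 15813 genes tested, 7.76% passed in that direction. The members' count was 79 without EAT adipocyte replicate 2 and 29 without IAT SVC replicate 3, where the share of all genes was not computed. Among the named genes the interaction passed in uc008hpr.2 (-1.03 on the log2 scale) and in uc009hyu.2 (-1.18). The ratios that chose the members used both contrasts, so these values describe the selected genes.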

How the results depend on the processing

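Of 245 alternative values, 225 stayed close to the value given and 20 moved. Close meant within 1.5 times for a count and within the spread between libraries for a median. Direction was not part of this grading. The tally includes results that could hardly move. The members higher in adipocytes were 136 to 137 in EAT and 137 in IAT over all alternatives, which the selection favoured. The count with a changed weighted length between EAT and IAT adipocytes was 0 in all of them. The members' median log2 depot difference in adipocytes was graded as close throughout, from -1.19 to -0.84. The count of members that differed between depots in SVCs (13) was 32 with only the groups compared and 21 with DESeq2, and it ran from 4 to 33 over fits that left out a library. The median log2 difference between adipocytes and SVCs in IAT (5.19) was 5.34 with DESeq2 size factors, 4.99 with library size alone, 5.29 with the length trend removed, 5.40 with only the groups compared and 5.36 with DESeq2. The interaction count (44) ran from 29 to 79 over fits that left out a library. For both counts the share of all genes was computed only at 13 and at 44. The count of members with a changed weighted length between fractions in IAT (8) was 5 with a replicate block and ran from 3 to 11 over fits that left out a library. The cause was not tested. With the replicate block, 134 members passed for the depot difference in adipocytes (126 without it), 14 for that in SVCs and 51 for the interaction, so that no other count moved by over 1.5 times. The count for the depot difference in adipocytes ran from 100 to 137 over all alternatives, and the number of genes that met the rule ran from 125 to 157. Across scalings, the median over all genes of the fraction difference in IAT was -0.24 with TMM, -0.09 with DESeq2 size factors and -0.44 with library size alone.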
